A study of Homo sapiens with 8 samples.

Results

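The miR-143 and miR-145 cluster comprises the hairpins MIR143 and MIR145, which lie next to each other on human chromosome 5 and give rise to 4 mature miRNAs: miR-143-3p, miR-143-5p, miR-145-5p and miR-145-3p. These 4 names were taken by their miRBase names from the 2588 mature miRNA names in the small RNA-seq table; earlier results of these data were known when the cluster was chosen. Small RNA-seq was performed in 4 human cancer cell lines. These were ES-2 (ovarian cancer), MV-3 (melanoma), Huh-7 (hepatocellular carcinoma) and A-549 (lung adenocarcinoma). All were untreated parental cells grown in DMEM with fetal bovine serum and harvested 48 h after seeding, and each line was represented by 2 replicate libraries. The labels of these libraries name no transgene or knockdown. Each tumour type was represented by a single line, and tumour type and cell line therefore cannot be told apart.

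miR-143 and miR-145 are processed from a common primary transcript and are best known from smooth muscle, where the transcription factor SRF and its cofactors of the myocardin family drive their transcription and the miRNAs promote the contractile state. They are abundant in fibroblasts and other mesenchymal cells, and in many carcinomas their levels are lower than in the surrounding tissue, which contains such stromal cells. Cultured lines, as used here, hold no stroma.

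The mature sequences are shown because the name of each arm and its seed, the stretch from base 2 to base 8 that pairs with target mRNAs, decide which reads and which relatives belong to it. They were taken from RefSeq annotation of GRCh38.p14, are written 5′ to 3′, and carry the seed in capitals.
hsa-miR-143-3p: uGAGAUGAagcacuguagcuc
hsa-miR-143-5p: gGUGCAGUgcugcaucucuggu
hsa-miR-145-5p: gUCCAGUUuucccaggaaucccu
hsa-miR-145-3p: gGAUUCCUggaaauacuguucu
The 4 seeds differ from each other. Of the members, miR-143-3p begins with U, whereas the other members begin with G.

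Among the 2370 mature names of the sequence table, 2 further human miRNAs shared the seed of miR-143-3p. They are shown here because miRNAs with a common seed are grouped into one family.
hsa-miR-4770: uGAGAUGAcacuguagcu
hsa-miR-6088: aGAGAUGAagcgggggggcg
Both had 0 reads in each of the 8 libraries. The 8 libraries held 12236 reads of miR-143-3p. Among the 2281 of 2588 names with a sequence, this miRNA thus accounted for all reads of the names that carry its seed. The seeds of the other members were unique among the 2370 mature names of the sequence table.

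In GRCh38 with GENCODE 44, the MIR143 hairpin (chr5:149428918-149429023, plus strand) lay in an exon of 3 transcripts of CARMN, a long non-coding RNA gene known from cardiac and smooth muscle that serves as the host gene of the cluster. The MIR145 hairpin (chr5:149430646-149430733, plus strand) lay in introns of 3 CARMN transcripts and in an exon of 0. The hairpins are separated by 1622 bases. Mature miR-143-5p maps to chr5:149428944-149428965, miR-143-3p to chr5:149428978-149428998, miR-145-5p to chr5:149430661-149430683 and miR-145-3p to chr5:149430699-149430720. A search of the CARMN promoter window, 250 bases before to 50 bases after the gene start, for the CArG box bound by SRF, on both strands, gave 0 matches of these letters in this window. Among 35116 promoter windows of this length, 454 (1.29%) held the motif, so that 0 matches was the likely outcome for any window. The CARMN gene starts at chr5:149406689, and the sequence between this window and the hairpins was not searched. Control of the cluster by SRF was not tested.

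The deposited values were counts per 1000000 miRNA reads scaled by a TMM factor per library, here called normalised CPM, and whole reads could be recovered from them. The libraries held 1173902 to 2670030 miRNA reads, with TMM factors of 0.593 to 1.70, and 3 reads corresponded to 0.845 to 2.45 normalised CPM. Because these factors were lowest in A-549 and highest in Huh-7, levels are also given as library CPM, the reads per 1000000 miRNA reads without the factor. Of marker miRNAs for the labelled tissues, hepatocyte miRNAs summed to 94976 to 98543 normalised CPM in Huh-7 and to at most 7826 elsewhere, and epithelial miRNAs to 1605 to 2339 in Huh-7 and A-549 and to at most 60.4 in ES-2 and MV-3. The hepatocyte sum in Huh-7 was mainly miR-122-5p (83721). miR-192-5p and miR-194-5p were at 5030 and 4828 in Huh-7 and at 4540 and 3148 in A-549. The epithelial sums were mainly miR-200b-3p (1853 in Huh-7, 1354 in A-549). miR-200c-3p was at 120 in Huh-7, 79.9 in A-549 and 44.5 in ES-2. miR-141-3p, named after its value was seen, was highest in ES-2 (5.25). The 5 melanocyte and melanoma miRNAs were near absent from MV-3, with a sum of 1.10 to 1.48 normalised CPM and 4 of 5 at 0, while Huh-7 held 34.2 to 44.2. The 6 blood cell miRNAs summed to 503 to 555 in ES-2, the line in which the cluster was lowest, and to at most 3.27 elsewhere. The sum in ES-2 came mainly from both arms of miR-142, miR-142-3p (357) and miR-142-5p (171). Of the 6, 4 had at most 3 reads per library in ES-2, and 2 of these were at 0. The part of these miRNAs in the low level of the cluster was not tested.

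miR-143-3p was the predominant product of the cluster in all 4 lines. It was high in A-549 and MV-3, intermediate in Huh-7 and low in ES-2. In A-549 it was measured at 2506 and 2617 normalised CPM in the replicate libraries, from 4071 and 3200 reads. In MV-3 the values were 1057 and 1018, from 1428 and 1855 reads. In Huh-7 they were 244 and 258, from 866 and 754 reads. The replicates of each of these lines lay within 1.06-fold of each other, and no ranges overlapped between lines. In ES-2 the values were 9.02 and 25.2 normalised CPM, from 13 and 49 reads, a 2.79-fold difference between replicates of one line. By abundance, miR-143-3p ranked 40 and 38 among all names in the A-549 libraries, but 296 and 235 in the ES-2 libraries.

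The mean level of miR-143-3p was 17.1 ± 11.4 in ES-2, 251 ± 9.67 in Huh-7, 1037.5 ± 27.6 in MV-3 and 2561 ± 78.6 in A-549 (normalised CPM, SD, n = 2). The order of the lines was the same by library CPM, but the spacing differed, with 14.6 ± 9.57 in ES-2, 419 ± 28.6 in Huh-7, 1207 ± 13.5 in MV-3 and 1539 ± 19.9 in A-549. The step from MV-3 to A-549 was thus 2.47-fold by normalised CPM and 1.28-fold by library CPM.

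miR-145-5p, the arm usually regarded as the guide strand of MIR145, was sparse. It had 0 reads in both ES-2 libraries. MV-3 gave 9 and 29 reads, or 6.66 and 15.9 normalised CPM. Huh-7 gave 45 and 41 reads, or 12.7 and 14.0025 normalised CPM. The ranges of these lines overlapped, and both lay below A-549, where 31 and 39 reads corresponded to 19.1 and 31.9 normalised CPM. The mean was highest in A-549 at 25.5 ± 9.06, against 13.3 ± 0.942 for Huh-7 and 11.3 ± 6.54 for MV-3 (normalised CPM, SD, n = 2). By library CPM the order was different, since Huh-7 was highest at 22.3 ± 2.23, followed by A-549 at 15.3 ± 5.17 and MV-3 at 13.2 ± 7.81.

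miR-145-3p, the opposite arm, was of similar abundance. In ES-2 it had 1 read in replicate 1 and 0 in replicate 2. MV-3 gave 7 and 18 reads, or 5.18 and 9.88 normalised CPM, and Huh-7 gave 22 and 28 reads, or 6.19 and 9.56. These ranges overlapped. A-549 gave 35 and 26 reads, or 21.5 and 21.3 normalised CPM, which was above all other libraries. By library CPM, A-549 (12.9 ± 0.347) and Huh-7 (13.2 ± 4.37) differed by less than the spread between replicates, and MV-3 was at 8.79 ± 3.999 (SD, n = 2).

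miR-143-5p, the passenger arm of MIR143, had 2 reads in MV-3 replicate 1, 2 reads in A-549 replicate 2 and 0 in the other libraries. It was therefore at or below the limit of detection of 3 reads throughout and was not tested, and no fold change is given. In the libraries with reads it made up 0.140% of the MIR143 reads in MV-3 (exact 95% interval 0.0169 to 0.504) and 0.0625% in A-549 (0.00757 to 0.225).

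**Figure D1:**
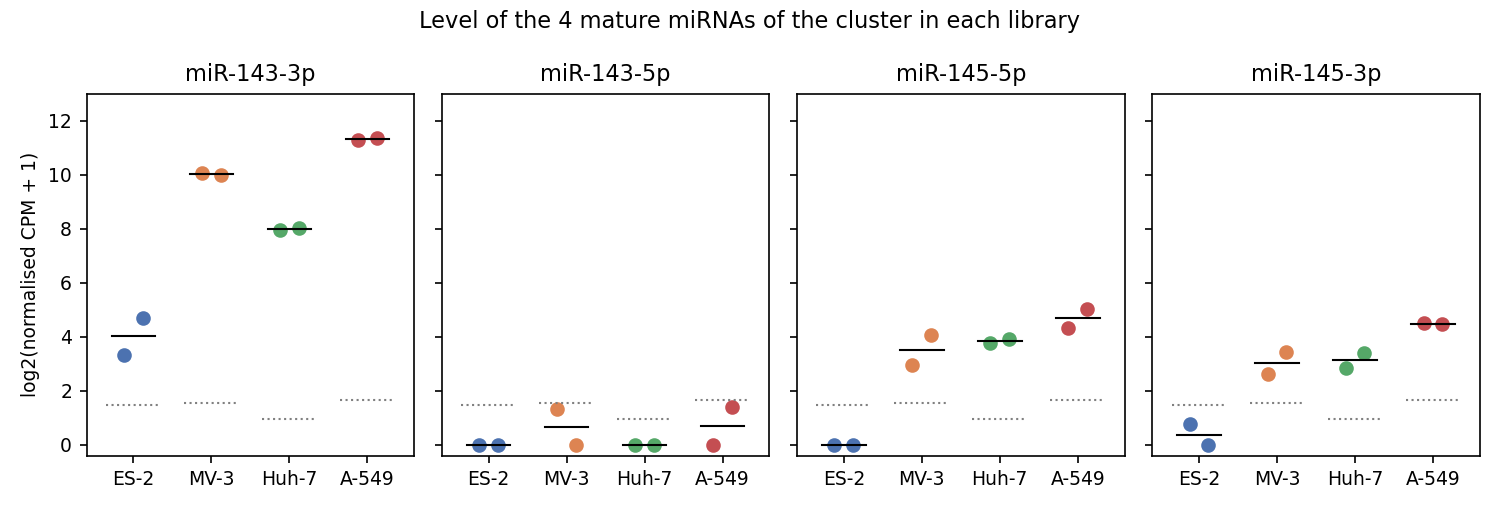
Level of each of the 4 mature miRNAs as log2(normalised CPM + 1) on the vertical axis, by cell line. Points are the 2 replicate libraries, solid lines their mean and dotted lines the mean level of 3 reads in that line; miR-143-3p runs from 17.1 normalised CPM in ES-2 to 2561 in A-549, both miR-145 arms stay between 5.18 and 31.9 in the libraries other than ES-2, and miR-143-5p stays below the dotted lines.

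The lines were then compared with limma on log2(normalised CPM + 1), fitted over all 8 libraries and the 528 names that passed a filter on low values. A name was called when its Benjamini-Hochberg adjusted p was below 0.01. Of the 4 members, 3 passed the filter and miR-143-5p did not. All 3 tested members were called for a difference among the 4 lines, where 68.2% of all tested names were called, and so a call among the lines is not particular to the cluster. The adjusted p by limma was 2.77e-05 for miR-143-3p, 0.000647 for miR-145-5p and 0.00120 for miR-145-3p. The median span between the highest and the lowest line was 4.68 on the log2 scale for the 3 members and 3.09 for all tested names.

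ES-2 was the line in which the cluster was lowest. The 3 comparisons with ES-2 share its 2 libraries and are not independent. In each, all 3 tested members were called higher in the other line, while 11.6% of tested names were called higher in MV-3, with 27.7% for Huh-7 and 23.7% for A-549. The median log2 fold change of the members was 4.68 for A-549, 3.84 for Huh-7 and 3.51 for MV-3, against 0.00, 0.34 and 0.00 for all tested names. With 0 reads of miR-145-5p and 1 read of miR-145-3p in ES-2, these arms passed the filter only through the other lines. Their direction against ES-2 was therefore fixed in advance, and the counts and medians of the members are descriptions only.

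miR-143-3p was higher than in ES-2 by 7.31 on the log2 scale in A-549 (SE 0.40, limma adjusted p = 1.6e-05), by 6.003 in MV-3 (SE 0.40, adjusted p = 7.1e-05) and by 3.96 in Huh-7 (SE 0.40, adjusted p = 0.000186). As folds of the mean normalised CPM these were 149.8, 60.7 and 14.7, and by library CPM 105.5, 82.8 and 28.7. The spread between the ES-2 libraries was the largest among the lines. When ES-2 replicate 1 was left out, miR-143-3p was higher in A-549 by 6.61 on the log2 scale, and when ES-2 replicate 2 was left out, by 7.998. The calls were kept without any single library. Other miRNAs that were low in ES-2 were compared between its libraries. Of 28 names with at least 100 library CPM in both A-549 libraries and at most 100 reads summed over ES-2, 23 had a higher library CPM in ES-2 replicate 2, with a summed library CPM of 152 against 81.8 in replicate 1. For 37 such names of Huh-7, 17 were higher in replicate 2 and the sums were 302 and 256. For 9 such names of MV-3, 6 were higher in replicate 2, while the sum was lower there (104 against 117). A name can stand in several of these sets. The share of all names that were higher in ES-2 replicate 2 was not computed, so these counts are descriptions only. The part of RNA from other libraries in these low values was not tested.

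For miR-145-5p, the mean normalised CPM was set against the mean level of 3 reads per library in ES-2. It was 14.1-fold this level in A-549, 7.36-fold in Huh-7 and 6.23-fold in MV-3. These folds depend on the TMM factors and are not lower limits. By library CPM the means were 22.3 in Huh-7, 15.3 in A-549 and 13.2 in MV-3. On that scale 3 reads corresponded to 1.80 and 1.31 in the ES-2 libraries. The fitted log2 fold changes against ES-2 were 4.68 in A-549 (limma adjusted p = 0.000322), 3.84 in Huh-7 (adjusted p = 0.000657) and 3.51 in MV-3 (adjusted p = 0.00196), each with an SE of 0.50. Since ES-2 was at 0, these values depend on the pseudocount, and with 0.1 in place of 1 they were 7.95, 7.07 and 6.70. edgeR on the recovered reads gave 8.66, 7.73 and 7.52, and both kept the calls. The calls in Huh-7 and MV-3 depended on single libraries. The call in MV-3 was lost in 5 of the 8 fits that left out 1 library (either ES-2 library, either Huh-7 library or MV-3 replicate 2), with an adjusted p of at most 0.0187. The call in Huh-7 was lost without either Huh-7 library, with an adjusted p of at most 0.0121.

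For miR-145-3p, the ratio, after TMM scaling, to the single read in ES-2 was 72.6 in A-549 (95% counting interval 12.5 to 2913), 26.1 in Huh-7 (4.48 to 1053) and 26.7 in MV-3 (4.37 to 1096). The intervals cover counting error only. The fitted log2 fold changes, which depend on the pseudocount as well, were 4.11 in A-549 (limma adjusted p = 0.000453), 2.74 in Huh-7 (adjusted p = 0.00253) and 2.66 in MV-3 (adjusted p = 0.00517), each with an SE of 0.47. The call in MV-3 was lost in all 8 fits that left out 1 library, with adjusted p from 0.0134 to 0.0360, and with the replicate number as a block (adjusted p = 0.0111). The call in Huh-7 was lost without ES-2 replicate 2 or either Huh-7 library, with an adjusted p of at most 0.0286. Both calls were also lost with DESeq2 on the recovered reads (4.63 in MV-3, adjusted p = 0.0159, and 4.59 in Huh-7, adjusted p = 0.0108) and with a pseudocount of 0.1 (4.69, adjusted p = 0.0206, and 4.79, adjusted p = 0.0108).

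In Huh-7 against MV-3, 1 of 3 tested members was called lower, where 20.1% of all tested names were called lower and 26.9% higher. This was miR-143-3p, which was lower by 2.05 on the log2 scale in Huh-7 (limma log2 fold change -2.05, SE 0.40, adjusted p = 0.00470), or 0.242 of the MV-3 level by normalised CPM and 0.347 by library CPM. The call was lost with library size scaling (-1.53, adjusted p = 0.0134) and in 6 of the 8 fits that left out 1 library, those without a library of MV-3, Huh-7 or A-549 (adjusted p up to 0.0538). It was kept without either ES-2 library. On the recovered reads, edgeR (-2.05, adjusted p = 2.8e-05) and DESeq2 (-2.15, adjusted p = 4.7e-25) also called miR-143-3p lower in Huh-7. The miR-145 arms gave limma log2 fold changes of 0.33 for miR-145-5p (SE 0.50, adjusted p = 0.606) and 0.09 for miR-145-3p (SE 0.47, adjusted p = 0.906).

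In A-549 against Huh-7, 1 of 3 tested members was called higher, where 28.6% of all tested names were called higher and 52.3% in either direction. miR-143-3p was higher by 3.35 on the log2 scale (SE 0.40, limma adjusted p = 0.000435), or 10.2-fold by normalised CPM and 3.68-fold by library CPM. Without Huh-7 replicate 1 the adjusted p was 0.0112. miR-145-5p and miR-145-3p gave log2 fold changes of 0.84 (SE 0.50, adjusted p = 0.186) and 1.36 (SE 0.47, adjusted p = 0.0434), which did not pass the threshold, and with library size scaling they were -0.55 and -0.000883.

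In A-549 against MV-3, 0 of 3 tested members were called by limma, where 24.1% of all tested names were called higher and 39.6% in either direction. At an unadjusted p below 0.05 the count was 2 of 3. The log2 fold changes were 1.30 for miR-143-3p (SE 0.40, adjusted p = 0.0348), 1.17 for miR-145-5p (SE 0.50, adjusted p = 0.0943) and 1.45 for miR-145-3p (SE 0.47, adjusted p = 0.0414). For miR-143-3p, whose replicates lay close together in both lines, the outcome depended on the ES-2 libraries, whose spread enters the pooled variance. The adjusted p was 0.000401 without ES-2 replicate 1, 0.000293 without ES-2 replicate 2 and 1.33e-05 when the 4 libraries of A-549 and MV-3 were fitted alone. edgeR (adjusted p = 0.000499) and DESeq2 (adjusted p = 6.5e-12) on the recovered reads called this difference of miR-143-3p, and each called 1 of the 3 members. With library size scaling the difference was 0.35 (adjusted p = 0.490).

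**Figure D2:**
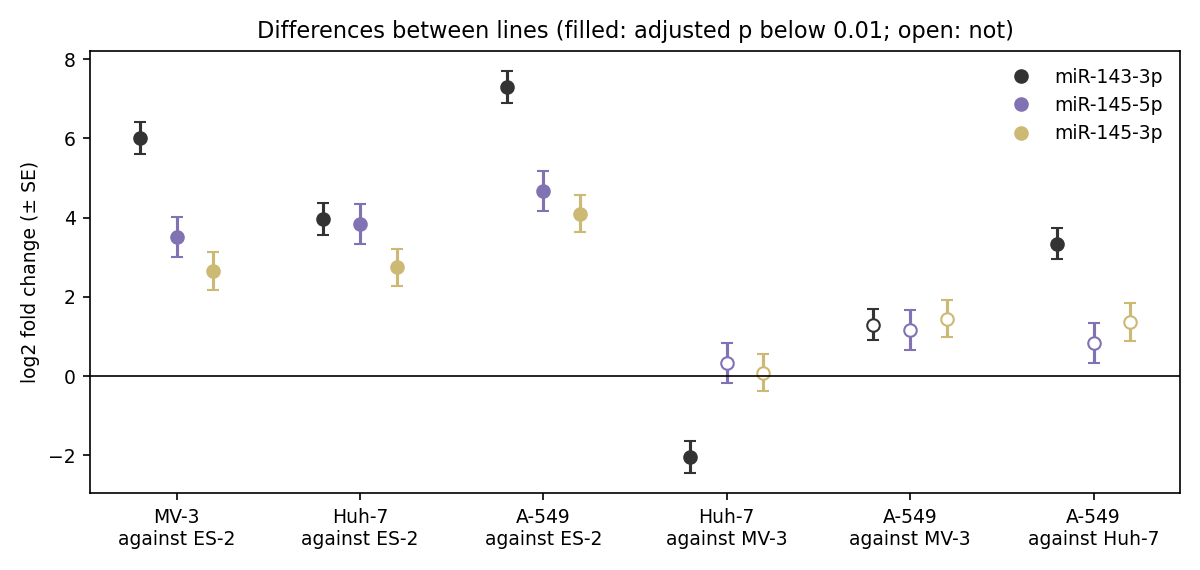
log2 fold change from limma (vertical axis, bars ± SE) of miR-143-3p, miR-145-5p and miR-145-3p for the 6 pairs of lines; filled symbols have an adjusted p below 0.01. All 9 symbols of the 3 comparisons with ES-2 are filled and above 0, whereas among the other lines the filled symbols are miR-143-3p in Huh-7 against MV-3 (-2.05) and in A-549 against Huh-7 (3.35).

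The ratio of miRNAs within a library does not depend on its scaling factor, and so the balance between the products of the hairpins was compared. miR-143-3p exceeded both miR-145 arms together in every library. In Huh-7 there were 12.9 and 10.9 miR-143-3p reads per miR-145 read in the replicate libraries. In MV-3 there were 89.3 and 39.5, and in A-549 61.7 and 49.2. The Huh-7 libraries were below all libraries of the other lines, and their 95% counting intervals of 10.1 to 16.8 and 8.53 to 14.2 did not reach those of MV-3 (54.8 to 157 and 29.6 to 53.9) or A-549 (48.4 to 79.9 and 38.5 to 63.9). These intervals leave out the spread between libraries. Those of the MV-3 replicates, from 16 and 47 miR-145 reads, did not overlap each other. The means were 11.9 ± 1.41 in Huh-7, 64.4 ± 35.2 in MV-3 and 55.5 ± 8.80 in A-549 (SD, n = 2). An exact permutation test of the log2 ratio over the 15 ways to divide the 6 libraries into 3 pairs cannot go below 0.0667, so that its p of 0.2 says nothing for or against a difference, and the ratios are given as a description. ES-2, with 1 miR-145 read in both libraries together, was left out. In terms of reads, Huh-7 gave 136 miR-145 reads and A-549 131, while MV-3 gave 63. miR-143-3p formed 91.6 to 92.8% of cluster reads in Huh-7 and 97.5 to 98.8% in MV-3 and A-549.

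The arms of the hairpins were used differently. MIR143 gave nearly all of its reads from the 3p arm, with 4 reads of the 5p arm against 12236. MIR145 gave comparable numbers from both arms, 194 reads of the 5p arm and 137 of the 3p arm over the 8 libraries. The 5p arm took 56.3% (exact 95% interval 29.9 to 80.2) and 61.7% (46.4 to 75.5) of the miR-145 reads in the MV-3 libraries. In Huh-7 it took 67.2% (54.6 to 78.2) and 59.4% (46.9 to 71.1), and in A-549 47.0% (34.6 to 59.7) and 60.0% (47.1 to 71.96). These shares overlapped between the lines (exact permutation test, p = 0.467, which likewise cannot go below 0.0667). Ligation of adapters differs between miRNA sequences, so ratios between arms and between miR-143 and miR-145 are read ratios and not ratios of molecules, while the same ratio can be compared between libraries.

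**Figure D3:**
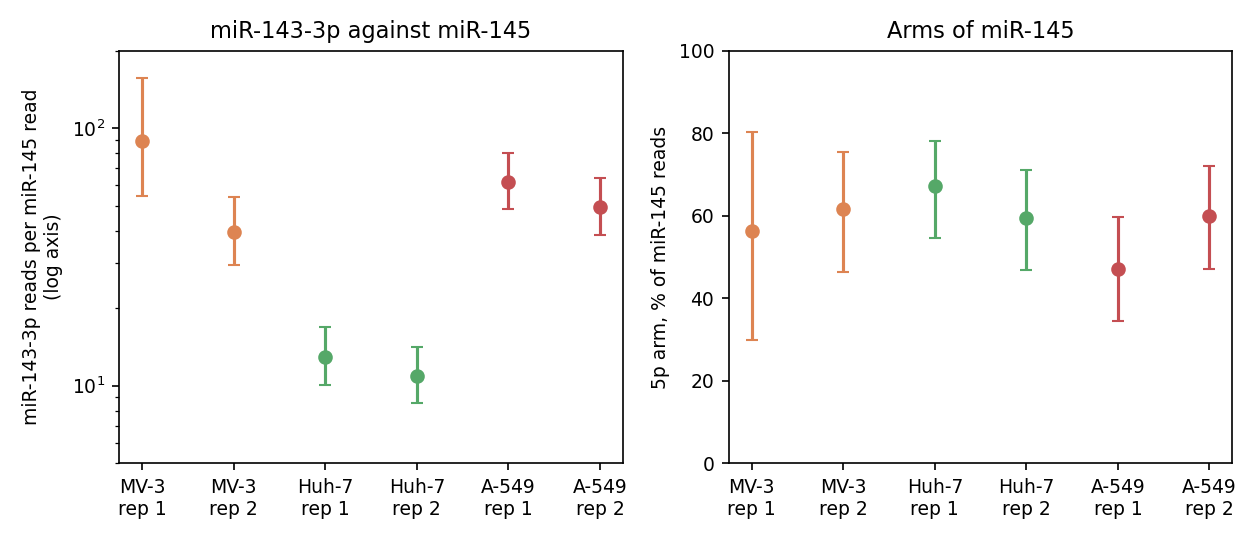
Left, miR-143-3p reads per miR-145 read (both arms) in each library on a log axis; right, the 5p arm as percent of miR-145 reads. Points are single libraries, without ES-2, and bars are 95% counting intervals; Huh-7 lies at 10.9 to 12.9 on the left, below MV-3 and A-549 at 39.5 to 89.3, while the shares on the right overlap between lines.

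The hairpins of 2 other miRNA genes lay within 1000000 bases of the cluster, and their levels did not follow those of miR-143-3p across the lines. MIR584 (chr5:149062313-149062409, minus strand, in an intron of SH3TC2) is 366509 bases away. Its product miR-584-5p was at 1318 ± 81.9 normalised CPM in ES-2 and 809 ± 67.0 in MV-3, but at 3.89 ± 3.76 in A-549 and 0.482 ± 0.284 in Huh-7 (SD, n = 2). It was lower than in ES-2 by a log2 fold change of -8.33 in A-549 (limma adjusted p = 3.2e-05) and -9.81 in Huh-7 (adjusted p = 1.1e-05), the lines in which miR-143-3p was higher. MIR378A (chr5:149732825-149732890, plus strand, in an intron of PPARGC1B, a coactivator of mitochondrial genes) is 302092 bases away. Its product miR-378a-3p was highest in ES-2 at 798 ± 1.88 normalised CPM and was lower in MV-3 (-1.30), Huh-7 (-1.89) and A-549 (-1.75, log2 fold changes, all called), an order of ES-2 against the rest that was the same by library CPM. Of the minor arms, miR-378a-5p was at 25.3 in ES-2 and at 2.84 to 11.4 normalised CPM in the other lines (limma adjusted p among the 4 lines = 0.0421), and miR-584-3p, with 9 reads in ES-2 and 0 elsewhere, was not tested.

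The names with levels most like those of miR-143-3p were chosen by Pearson correlation over the 8 libraries on log2(normalised CPM + 1), among 525 candidates. These correlations are descriptions, since all points share the 4 lines, the 8 libraries and their TMM factors. The closest were miR-99b-5p (r = 0.987), miR-365a-3p (0.981), miR-365b-3p (0.980), miR-27b-5p (0.971) and miR-23b-5p (0.968). Without the TMM factor, on log2(library CPM + 1), r was 0.808 for miR-99b-5p and 0.934 to 0.966 for the others. miR-99b-5p had a library CPM of 4419 to 4961 in A-549, below the 6943 to 8114 of MV-3 and Huh-7, unlike miR-143-3p. miR-27b-5p was at 24.6 normalised CPM in ES-2, 153 in Huh-7, 198 in MV-3 and 593 in A-549. For miR-145-5p the closest were miR-365b-3p (r = 0.966), miR-23b-3p (0.960), miR-27b-3p (0.957), miR-365a-3p (0.954) and miR-486-3p (0.941). Products of miR-365, whose a and b forms have the same mature 3p sequence and can share reads, and of the neighbouring hairpins miR-23b and miR-27b were thus in both sets. With Spearman's rho in place of r, 1 of 5 and 0 of 5 of these names stayed among the closest 5, respectively. Within the cluster, miR-145-5p and miR-145-3p were each other's closest (r = 0.970, place 1), whereas miR-145-3p and miR-145-5p took places 12 and 13 in likeness to miR-143-3p (r = 0.916 and 0.914).

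Given the link of the cluster to muscle, 8 miRNAs known from muscle were compared. Of these, 3 passed the filter and 1 was called higher in each comparison with ES-2, where 11.6% (MV-3), 27.7% (Huh-7) and 23.7% (A-549) of all tested names were. This was miR-486-5p, which is abundant in red blood cells and muscle, at 783 ± 6.18 normalised CPM in Huh-7, 335 ± 31.4 in A-549, 115 ± 1.27 in MV-3 and 11.1 ± 6.84 in ES-2 (SD, n = 2). It was lowest in ES-2, as was miR-143-3p, but highest in Huh-7. miR-1-3p, which with miR-133 marks cardiac and skeletal muscle, had 28 reads in Huh-7, 17 in A-549, 14 in MV-3 and 3 in ES-2. miR-133a-3p had 8 reads in A-549, 5 in Huh-7 and 0 in both other lines, and miR-499a-5p had 11 to 16 reads per line. miR-133b, miR-206, miR-208a-3p and miR-208b-3p had 0 reads in all 8 libraries.

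Most of the tested mesenchymal miRNAs differed from the cluster in their distribution. Of 7 listed, 6 were tested, and 5 were called lower than in ES-2 in both Huh-7 and A-549, with median log2 fold changes of -5.77 and -6.996, where 21.6% and 17.6% of all tested names were called lower and the tested members of the cluster were called higher. The 5 were miR-218-5p and products of miR-199a and miR-199b, so this count and these medians mostly restate miR-199. In MV-3 against ES-2, 2 of the 6 tested were called higher and 1 lower (median 0.61), where the shares of all tested names were 11.6% and 14.2%. miR-199a-3p, a product of genes active in mesenchymal cells, was at 7245 ± 533 normalised CPM in MV-3 and 4731 ± 95.6 in ES-2, but at 8.81 ± 3.21 in A-549 and 6.73 ± 0.830 in Huh-7 (SD, n = 2). miR-199b-3p, whose mature sequence is identical and whose reads can be shared, was at 3526, 2326, 3.90 and 2.07 in the same order, and miR-199a-5p at 1135, 781, 2.26 and 1.90. miR-218-5p was at 1583 in MV-3, 619 in ES-2, 301 in A-549 and 69.2 in Huh-7. Of the listed miRNAs with lower levels, chosen for mention after their values were seen, miR-199b-5p was at 61.8 in ES-2 and at 0 in both MV-3 libraries, and miR-214-3p was at 33.4 in MV-3 and at most 3.68 in the other lines. miR-214-3p was lowest in ES-2, at 0.514 from 2 reads. Unlike the other tested miRNAs of this list, it was not lower than in ES-2 in A-549 or Huh-7. The log2 fold changes were 1.67 and 0.34, and neither was called. miR-214-5p had a single read over all libraries and was not tested.

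**Figure D4:**
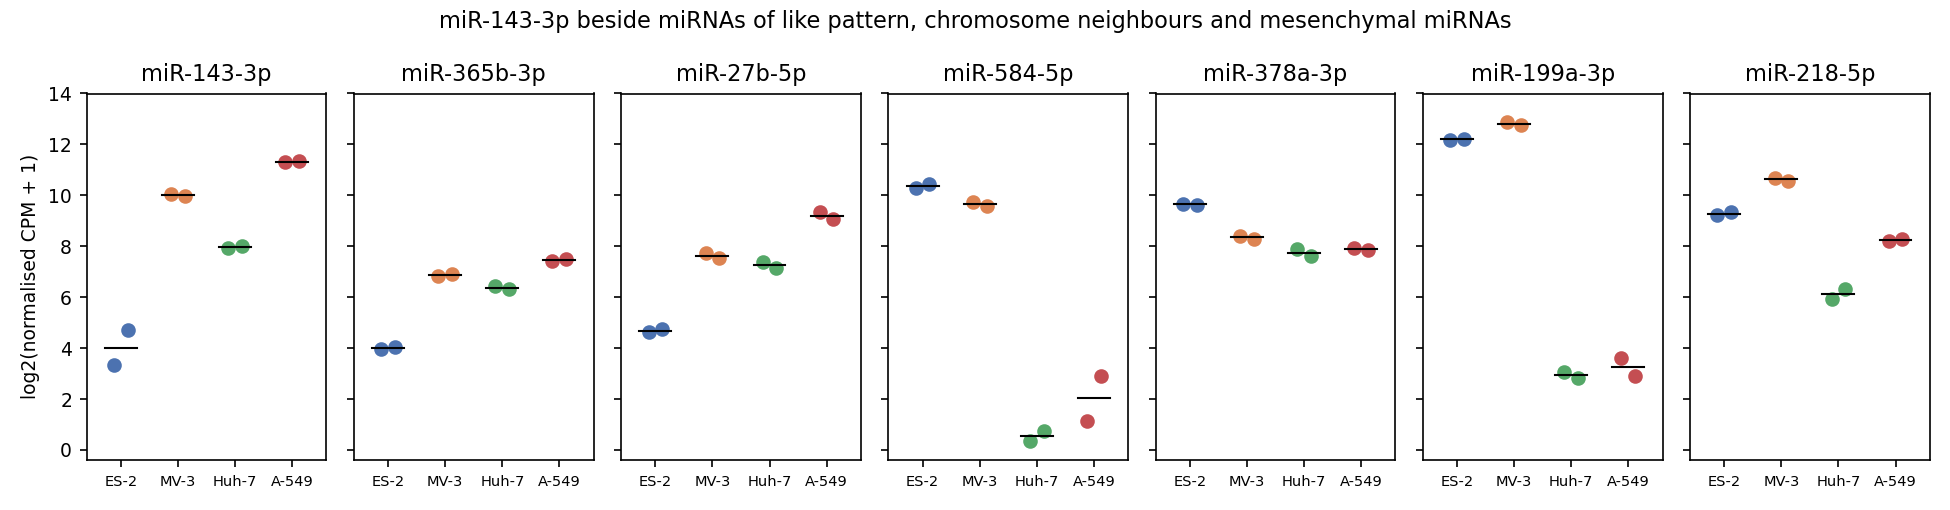
log2(normalised CPM + 1) of miR-143-3p beside miR-365b-3p and miR-27b-5p (among the most like it over the libraries), miR-584-5p and miR-378a-3p (hairpins within 1000000 bases) and miR-199a-3p and miR-218-5p (mesenchymal list). Points are the 2 replicate libraries of each line and lines their mean; ES-2 is lowest for the first 3 miRNAs, whereas miR-584-5p and miR-199a-3p are at 1318 and 4731 normalised CPM in ES-2 and below 10 in Huh-7 and A-549.

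A list of 6 miRNAs known to affect the smooth muscle phenotype was tested in full, and all 6 were called among the 4 lines, where 68.2% of all tested names were. Against ES-2, 2 were called higher and 4 lower in A-549 (median log2 fold change -1.23), 1 higher and 4 lower in Huh-7 (median -0.75) and 1 higher and 3 lower in MV-3 (median -0.36). Of all tested names, 23.7% were called higher and 17.6% lower in A-549, 27.7% and 21.6% in Huh-7 and 11.6% and 14.2% in MV-3. miR-21-5p, which is abundant in most tumour cells, was called higher in A-549 by 1.74 on the log2 scale (limma adjusted p = 2.1e-06), and its library CPM was 276264 in ES-2 and 646036 in A-549. miR-222-3p and miR-221-3p, which share a seed and stimulate smooth muscle proliferation, were at 65897 and 28705 normalised CPM in ES-2 and at 14537 and 6864 in A-549. miR-26a-5p was at 15253 in ES-2 and 6939 in A-549. The other miRNA called higher in A-549 was miR-24-3p (outside the naming rule and named after its value was seen), at 9879 normalised CPM against 4776 in ES-2 (log2 fold change 1.05, limma adjusted p = 3.1e-05) and at 5940 against 4093 by library CPM.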

How the data were processed

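Per the labels and the methods of the study, total RNA (50 ng) from 8 cultures was made into libraries with the NEXTflex Small RNA kit v3, and reads were clipped with Cutadapt 1.14, aligned to GRCh38 with Bowtie2 2.3.2 and summed over miRBase 21 names with featureCounts 1.5.3; the handling of reads with several matching places is not given in the sources used here. The authors deposited a signal per name, counts per 1000000 reads (CPM) scaled with TMM factors of edgeR 3.18.1. Whole reads were recovered from it (lowest share of whole values 100% per library, tolerance 0.001). The table held 2813 entries, and entries of one name, usually gene copies, were handled as 2588 names.

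From these, log2(normalised CPM + 1) was fitted with limma 3.58.1 (R 4.3.3; trend prior, 4 residual degrees of freedom) on the 528 names passing the filterByExpr rule, with Benjamini-Hochberg adjusted p below 0.01. Alternatives were edgeR 4.0.16 (quasi-likelihood) and DESeq2 1.42.0 on recovered reads, other pseudocounts, filters and scalings, a replicate block, and leaving out each library. Exact intervals (Clopper-Pearson, 95%) and the limit of 3 reads cover counting error only. Intervals of ratios condition on the summed reads. Scripts were tested on simulated data. Sequences were taken from RefSeq (2281 of 2588 names matched) and annotation from GENCODE 44.

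The cluster and all lists were chosen with earlier results of these data known. Named miRNAs were the members, names sharing a seed, names with hairpins within 1000000 bases, the 5 most like miR-143-3p and miR-145-5p, and up to 4 of each list with the highest mean level. Replicates of a line are separate libraries, and p-values measure the spread between these libraries, which may be technical. Replicates differed beyond sampling noise (chi-square per degree of freedom 8.53 to 15.6).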

Additional observations from a re-analysis of the deposited data

How the results depend on the processing

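With 2 libraries per line and 4 residual degrees of freedom, a single library can decide a call, and with 194 and 137 reads in all, the miR-145 arms are limited by depth. The higher level of miR-143-3p in each line against ES-2 and of both miR-145 arms in A-549 against ES-2 kept its call under all alternatives run. Library size scaling moved the median of all names by 0.40 (MV-3), 0.88 (Huh-7) and -0.50 (A-549) on the log2 scale against ES-2, and by -1.33 in A-549 against Huh-7. Under it, miR-143-3p in Huh-7 against MV-3 was at -1.53 and no longer called, and in A-549 against Huh-7 miR-145-5p was at -0.55 and miR-145-3p at -0.000883, both with a changed sign. For miR-143-3p in A-549 against MV-3, not called by limma over all lines, a call was gained with edgeR (1.30), DESeq2 (1.43), an adjusted p threshold of 0.05 (1.30) and a fit of these 2 lines alone (1.30). With a pseudocount of 0.1, miR-145-3p was no longer called among the 4 lines (6.25, adjusted p = 0.0103) nor in MV-3 (4.69, adjusted p = 0.0206) and Huh-7 (4.79, adjusted p = 0.0108) against ES-2. miR-145-3p in Huh-7 against MV-3, not called in any fit, changed sign with DESeq2 (-0.0379). The cause was not tested.

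Leaving out 1 library at a time gave log2 fold changes of miR-143-3p from -2.08 to -2.01 in Huh-7 against MV-3, from 1.27 to 1.33 in A-549 against MV-3 and from 3.31 to 3.39 in A-549 against Huh-7. For miR-145-5p they were 2.94 to 4.08 in MV-3 and 3.77 to 3.91 in Huh-7 against ES-2. In Huh-7 against MV-3 they were -0.24 to 0.90 for miR-145-5p and -0.32 to 0.50 for miR-145-3p, with a changed sign of miR-145-3p also without Huh-7 replicate 2 (-0.19). Where 1 library was left in a line, its spread was taken from the other lines.

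The replicate numbers did not pair the libraries, as deviations of same-numbered libraries correlated at -0.05 to 0.23. With the replicate number as a block, 361 names were called among the 4 lines against 360 without it, and of the members miR-145-3p in MV-3 against ES-2 lost its call (2.66, adjusted p = 0.0111). Counts of called names stayed within 1.5 times the count of the limma fit over all libraries under the alternatives run, for instance 279 to 440 against 360 among the 4 lines.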
